A study of Rattus norvegicus with 6 samples.

Results

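The serpins are a family of proteins that share 1 fold, and most of them block serine proteases. They were taken as the genes whose symbol begins with Serpin in a table of group averages of dorsal root ganglion RNA, with 2 left out. That gave 28 genes of the 18696 with averages. The ganglia, clusters of sensory nerve cell bodies beside the spinal cord, came from rats of the SD strain. In the SNI group (spared nerve injury, 3 libraries) 2 branches of the sciatic nerve, the tibial and the common peroneal, had been tied and cut and the sural branch spared. In the sham group (3 libraries) the skin was opened to expose the nerve and then closed, and no other agent or allele is named for either group. The sources used here do not state the age of the rats, the time after surgery, or the spinal level and side of the tissue. They also do not say whether each library is a separate animal. Every p-value below therefore reflects variation among these 6 libraries, which could be technical.

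An inhibitory serpin carries an exposed loop that a protease takes for a substrate. Once the loop is cut, the serpin changes shape and traps the protease in a permanent complex, so that 1 serpin molecule is used up for each protease. Members of clades A, C, D, E and F are mostly secreted and act on clotting, clot breakdown and proteases of white blood cells, while clade B members lack a classical secretion signal and work largely inside cells. A few members inhibit nothing, among them the collagen chaperone encoded by Serpinh1. In the mouse, Serpina3n made by dorsal root ganglion neurons has been linked to reduced pain after nerve injury through inhibition of leukocyte elastase.

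Expression is given as TPM, the share of a transcript among all transcripts of a library with its length taken into account. Values per library were deposited for 1637 genes, of which 6 are serpins, and for the other 22 serpins the authors' table holds 1 average a group. The reads behind the averages summed to 18.6 M in SNI and 18.6 M in sham, and the depth of each library is unknown. In the averages, 7 markers of sensory neurons (2 of them higher and 5 lower in SNI) summed to 17583 TPM in SNI and 16482 TPM in sham. The lowest stood at 46.3 and 58.4 TPM, so the labelled tissue was present in both groups. The 2 higher ones were Tubb3, at 6108 TPM in SNI and 4726 TPM in sham, and Prph, at 3393 and 2762 TPM. Markers of macrophages (9 genes, all with a higher average in SNI and 6 at least 2-fold) summed to 246 TPM in SNI and 109.6 TPM in sham, and those of erythrocytes (4 genes) to 624 and 193 TPM. Markers of myelinating Schwann cells (6 genes, all with a lower average in SNI) summed to 5879 TPM in SNI and 10808 TPM in sham. Those of neutrophils (6 genes, 4 of them higher) summed to 480.5 TPM in SNI and 309.8 TPM in sham, and those of satellite glia (6 genes, 4 of them higher) to 8137 and 8923 TPM. No marker was at 0 in either average. In whole tissue, fewer cells of a type and less RNA per cell cannot be told apart, and the part that these cell types had in any serpin value was not tested.

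The promoters of 3 serpins that the authors' deposited table lists as higher in SNI are shown because their transcripts differed most among the members with a promoter at hand. They come from RefSeq (GRCr8), read 5′ to 3′ on the gene's strand, and hold 250 bases before and 50 after the annotated start. Capitals mark matches to TTCNNNGAA, the letters bound by STAT factors, or to TGANTCA, searched on both strands. The latter, called AP-1 letters here, includes the AP-1 site (TGAGTCA or TGACTCA) and forms with another middle letter. The Serpina3n promoter lies at chr6:129088142-129088441 on the plus strand, that of Serpinb2 at chr13:24055771-24056070 on the plus strand and that of Serpina1 at chr6:128653076-128653375 on the minus strand.
Serpina3n: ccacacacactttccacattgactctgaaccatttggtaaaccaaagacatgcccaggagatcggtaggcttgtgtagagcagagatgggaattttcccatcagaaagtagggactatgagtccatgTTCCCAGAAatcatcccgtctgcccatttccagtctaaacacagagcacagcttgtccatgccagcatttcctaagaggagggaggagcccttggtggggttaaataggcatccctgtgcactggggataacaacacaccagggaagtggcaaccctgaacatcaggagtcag
Serpinb2: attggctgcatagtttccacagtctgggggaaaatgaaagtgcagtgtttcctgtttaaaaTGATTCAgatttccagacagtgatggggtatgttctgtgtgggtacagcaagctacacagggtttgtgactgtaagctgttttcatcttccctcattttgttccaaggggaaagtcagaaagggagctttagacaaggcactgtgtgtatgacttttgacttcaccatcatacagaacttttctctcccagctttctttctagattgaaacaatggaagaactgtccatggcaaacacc
Serpina1: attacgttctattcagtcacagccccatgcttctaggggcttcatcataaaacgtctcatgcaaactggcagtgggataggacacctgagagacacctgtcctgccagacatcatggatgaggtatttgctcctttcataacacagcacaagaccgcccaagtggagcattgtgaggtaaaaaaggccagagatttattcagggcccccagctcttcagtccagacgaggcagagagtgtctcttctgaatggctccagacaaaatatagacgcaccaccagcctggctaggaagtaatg
The Serpina3n promoter held 1 STAT match, which begins 123 bases before the start, and no AP-1 match. In the Serpinb2 promoter 1 match to the AP-1 letters begins 189 bases before the start, in the form TGATTCA, which is not the site itself. The Serpina1 window held neither. Of 24 members with a promoter in the table, 3 held the STAT letters (12.5%) and 3 the AP-1 letters (12.5%), against 9.39% and 8.04% of all 27457 genes with a promoter. The other members with STAT letters were Serpina11 and Serpinb6a, and those with AP-1 letters Serpinb5 (TGAATCA) and Serpinb7 (TGAGTCA). No serpin promoter held TGACGTCA, the cyclic AMP response element, found in 2% of all genes. Where the window was kept to the bases before the start, 2 serpins held the STAT letters, as the Serpinb6a match runs past the start.

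SNI is a model of neuropathic pain, and its libraries were set against sham to see which ganglion transcripts differ. Together the 28 serpins made up 1939 TPM in SNI and 1590 TPM in sham, 0.194% and 0.159% of all transcripts. Serpinb6a alone held 35.1% of this sum in SNI and 47.2% in sham. Serpina3n held 6.81% in SNI and 0.0486% in sham, and Serpinb1a 24.9% and 18.1%. The averages of 16 members were higher and those of 12 lower in SNI. Of all genes, 53.1% had a higher average in SNI, against 57.1% of the serpins, so the direction alone does not set the family apart. The median log2 ratio of averages was 0.06 over the serpins and 0.02 over all genes, with 1 TPM added to each average. With 0.1 TPM added instead, the medians were 0.28 and 0.02, so the serpin median depends on this setting. Only 16 members in SNI and 12 in sham averaged 1 TPM or more.

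A ratio of at least 2-fold, on averages with 1 TPM added, was reached by 3 serpins in the higher direction and 1 in the lower. Among all genes with averages, 2.32% were that much higher and 0.407% that much lower. The same 3 serpins, Serpina3n, Serpinb2 and Serpina1, stand in the authors' deposited higher list, which holds 3.63% of the genes with averages. Serpinb1b is in their lower list, which holds 0.695%. The averages have no spread, so for Serpinb2 and Serpina1 the difference has no replicate check here.

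**Figure D1:**
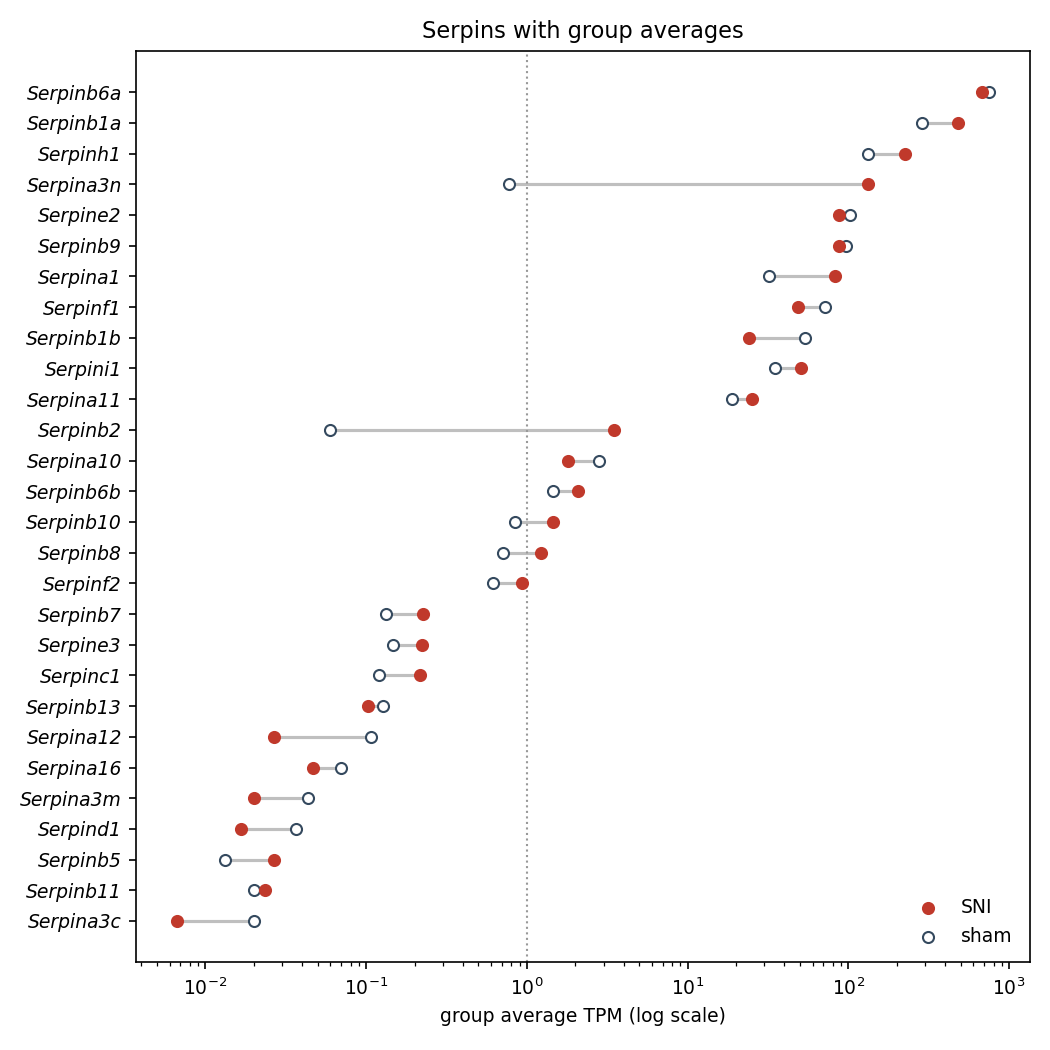
Group average TPM (log axis) of the 28 serpins, SNI as filled red points and sham as open points, with 1 pair a gene and a dotted line at 1 TPM. Serpina3n stands at 132 TPM in SNI and 0.773 TPM in sham and Serpinb2 at 3.47 and 0.0600 TPM, while Serpinb6a, the most abundant member, stands at 680 and 751 TPM.

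Values per library allowed a test for 6 serpins, all of which had a mean of at least 1 TPM. With limma on log2(TPM + 1) over the 1596 genes that passed this filter, 2 serpins rose and 4 fell at a Benjamini-Hochberg adjusted p under 0.05. That table is itself a selection by a rule not given in the sources used here, and in it 32% of genes were called higher and 29.2% lower in SNI, 61.2% together. The groups did not overlap for any of the 6, as for 66.7% of the genes tested. The counts of called serpins, and those of the other gene lists below, are therefore read against a background in which a call was the usual outcome.

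Serpina3n (Gene ID 24795), a secreted clade A inhibitor, stood at 135, 129 and 132 TPM in the SNI libraries, against 1.27, 0.730 and 0.320 TPM in the sham libraries. All 3 SNI libraries lay within a narrow band, and the highest sham library was far below the lowest of them. The log2 fold change was 6.26 with SE 0.16 (limma adjusted p = 3.8e-09). Behind these averages were 7420 reads in SNI and 43 in sham, summed over 3 libraries. Their ratio was 173, with an exact 95% interval of 128 to 239 that covers counting error only. With 0.1 in place of 1 added to each TPM, the log2 ratio of averages was 7.24 in place of 6.23, since the added 1 TPM is larger than the sham average.

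The other member that rose was Serpinb1a (Gene ID 291091), an intracellular inhibitor of neutrophil elastase and related proteases. It stood at 477, 494 and 478 TPM in SNI, against 295, 302 and 264 TPM in sham. The groups did not overlap, and the log2 fold change was 0.75 (SE 0.06, limma adjusted p = 3.2e-06). Its close relative Serpinb1b (Gene ID 306891) moved in the opposite direction, at 23.6, 22.9 and 25.4 TPM in SNI and 48.9, 65.9 and 46.4 TPM in sham. Sham replicate 2 was the highest, and all 3 sham libraries stayed above the SNI libraries. The log2 fold change of Serpinb1b was −1.12 (SE 0.12, limma adjusted p = 3.1e-05). The ratio of Serpinb1b to Serpinb1a was 0.0497 ± 0.00333 in SNI and 0.187 ± 0.0280 in sham (SD, n = 3 each). Their sum was 507 ± 8.62 TPM in SNI and 341 ± 28.7 TPM in sham (SD, n = 3 each). The sequences of such relatives can share reads and the counting tool is not named, so the split between these genes is uncertain. The summed markers of macrophages and of neutrophils, given above, were higher in SNI as well. Of the neutrophil markers, however, Elane (2.48 TPM in SNI, 2.66 TPM in sham) and Mpo (2.67 and 2.84 TPM) had lower averages. Mpo, the 1 neutrophil marker tested, did not pass (limma adjusted p = 0.62). Of 3 macrophage markers tested with limma, 1 rose and 2 did not pass.

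**Figure D2:**
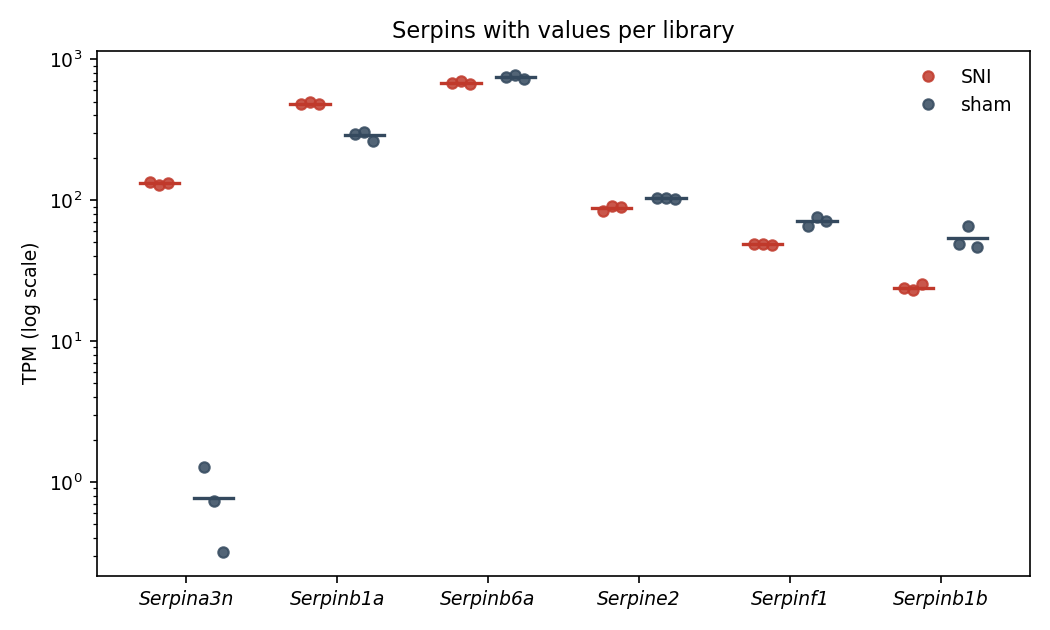
TPM per library (log axis) of the 6 serpins with values per library, SNI in red to the left of sham in blue, with a bar at each group's mean of 3 libraries. Serpina3n separates the groups most, at 129 to 135 TPM in SNI and 0.320 to 1.27 TPM in sham, and Serpinb1a and Serpinb1b lie on opposite sides of their sham values.

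Serpinf1 (Gene ID 287526) encodes PEDF, a secreted clade F member that inhibits no protease and is known as a trophic factor for neurons and a brake on vessel growth. It fell to 48.8, 49.0 and 48.1 TPM in SNI, against 65.7, 75.9 and 71.5 TPM in sham. The SNI libraries were nearly level and all below the sham libraries, with a log2 difference of −0.54 and SE 0.06 (limma adjusted p = 4.7e-05). Serpine2 (Gene ID 29366), protease nexin-1, an inhibitor of thrombin, urokinase and tissue plasminogen activator, stood at 83.3, 90.2 and 89.6 TPM in SNI and 104, 104 and 101 TPM in sham. Its fall was small, at −0.23 on the log2 scale with SE 0.05 (limma adjusted p = 0.0028). Markers of Schwann cells were lower in SNI as well. Those of fibroblasts and sheath (6 genes, 2 of them higher and 4 lower) summed to 785 TPM in SNI and 830.5 TPM in sham. Of 5 of these tested with limma, 1 rose, 2 fell and 2 did not pass.

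Serpinb6a (Gene ID 291085), an intracellular clade B inhibitor known to bind cathepsin G, stood at 674, 699.5 and 666 TPM in SNI, against 751, 776 and 726 TPM in sham. The groups did not overlap, but the log2 fold change was only −0.14 (SE 0.04, limma adjusted p = 0.015). The call was lost without SNI replicate 1 (limma adjusted p = 0.055) or SNI replicate 3 (limma adjusted p = 0.063). Its relative Serpinb6b averaged 2.08 TPM in SNI and 1.45 TPM in sham, a level at which 79 reads in SNI and 55 in sham were counted over 3 libraries.

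The plasminogen system turns plasminogen into plasmin, which dissolves clots and matrix, and several serpins limit it. Serpinb2 (Gene ID 60325), an inhibitor of urokinase, averaged 3.47 TPM in SNI and 0.0600 TPM in sham. With 188 reads in SNI and 3 in sham, the ratio was 62.7 with an exact 95% interval of 21.1 to 307 for counting error only. Serpini1 (Gene ID 116459), neuroserpin, an inhibitor of tissue plasminogen activator made by neurons, averaged 51.1 TPM in SNI and 35.0 TPM in sham. Serpinf2, the plasmin inhibitor, lay under 1 TPM in both groups, at 0.927 TPM in SNI and 0.617 TPM in sham. So the averages of Serpinb2, Serpini1 and Serpinf2, which have no spread, were higher in SNI, while Serpine2, which passed the test, was lower. For Serpinf2 the exact 95% interval of the read ratio, 0.986 to 2.39 for counting error only, included 1.

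Of the targets and receptors of these inhibitors, Plat has values per library. Plat, tissue plasminogen activator, stood at 168 ± 3.12 TPM in SNI and 162 ± 2.60 TPM in sham (SD, n = 3 each) and did not pass the test. Its log2 fold change was 0.05 with SE 0.04 (limma adjusted p = 0.37). Plau, urokinase, averaged 9.003 TPM in SNI and 4.62 TPM in sham, and its receptor Plaur 33.8 and 29.0 TPM. Vtn, vitronectin, an adhesive protein of matrix and plasma, averaged 14.8 TPM in SNI and 24.5 TPM in sham. Lrp1, a receptor that clears serpin complexes, averaged 21.4 and 21.0 TPM. Of 27 plasminogen and clotting partners with averages, 1 was at least 2-fold higher and 0 lower in SNI, with a median log2 ratio of 0.16. The member past the fold was Thbd, thrombomodulin, at 30.4 TPM in SNI and 11.6 TPM in sham. Of 6 tested with limma, 2 rose, 2 fell and 2 did not pass.

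Clade A holds serpins best known from blood plasma. Serpina1 (Gene ID 24648), the gene of alpha-1-antitrypsin and an inhibitor of neutrophil elastase, averaged 82.0 TPM in SNI and 32.1 TPM in sham. Its reads summed to 3347 in SNI and 1303 in sham, a ratio of 2.57 with an exact 95% interval of 2.41 to 2.74 for counting error only. Serpina11 (Gene ID 362774), next to it on the chromosome, averaged 25.2 TPM in SNI and 18.8 TPM in sham. Serpina10, the protein Z-dependent inhibitor of clotting factor X, averaged 1.79 TPM in SNI and 2.81 TPM in sham. Plasma genes of the liver (4 with averages) summed to 3.23 TPM in SNI and 5.14 TPM in sham, among which Alb averaged 0.240 TPM in SNI and 0.500 TPM in sham and Apoa1 0.420 and 0.383 TPM. Elane, neutrophil elastase, averaged 2.48 TPM in SNI and 2.66 TPM in sham, and Ctsg, cathepsin G, 3.19 and 2.87 TPM.

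Serpinh1 (Gene ID 29345) encodes Hsp47, which stays in the endoplasmic reticulum and helps procollagen fold. It averaged 226 TPM in SNI and 133 TPM in sham, the third most abundant serpin in both groups. Of 27 collagen genes and partners of collagen folding with averages, 20 were higher and 7 lower in SNI, with a median log2 ratio of 0.14 and 0 past 2-fold in either direction. Of 11 tested with limma, 5 rose, 1 fell and 5 did not pass. Hspa5, the main chaperone of the endoplasmic reticulum, rose to 335 ± 4.59 TPM in SNI, against 214 ± 11.3 TPM in sham (SD, n = 3 each), a log2 fold change of 0.64 (limma adjusted p = 3.8e-06). Ppib, a proline isomerase of collagen folding, averaged 202 TPM in SNI and 184 TPM in sham. Col1a1, a chain of type I collagen, stood at 145 ± 1.63 TPM in SNI and 146 ± 7.43 TPM in sham (SD, n = 3 each), with a log2 fold change of −0.01 and SE 0.05 (limma adjusted p = 0.90).

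Serpinb9 (Gene ID 361241), an intracellular inhibitor of granzyme B that protects cells from their own granules, averaged 87.3 TPM in SNI and 97.2 TPM in sham. Its target Gzmb averaged 5.46 TPM in SNI and 0.177 TPM in sham, from 213 and 7 summed reads. The ratio of reads was 30.4, with an exact 95% interval of 14.5 to 76.6 for counting error only. Markers of cytotoxic lymphocytes (6 genes, Gzmb among them) summed to 16.1 TPM in SNI and 5.66 TPM in sham. Of 29 serine proteases with averages, 1 (Gzmb) was at least 2-fold higher and 1 lower in SNI, with a median log2 ratio of 0.02. The lower one was Mcpt1l1, a mast cell protease, at 1.44 ± 0.521 TPM in SNI and 4.08 ± 0.616 TPM in sham (SD, n = 3 each; limma adjusted p = 0.00039). Of 5 serine proteases tested, 1 rose, 2 fell and 2 did not pass. Among 12 cysteine cathepsins, related lysosomal proteases and caspases, 0 were past 2-fold and the median log2 ratio was 0.30. The most abundant, Ctsb and Ctsd, averaged 3122 and 716 TPM in SNI and 3016 and 805 TPM in sham. Of 2 tested, Ctsd fell with a log2 fold change of −0.17 (limma adjusted p = 0.0031) and Ctsk did not pass.

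Protease inhibitors outside the serpin family act on the same and on other classes of protease. Of 25 with averages, 6 were at least 2-fold higher and 1 lower in SNI, with a median log2 ratio of 0.02. Slpi, a secreted inhibitor of leukocyte proteases, averaged 46.7 TPM in SNI and 4.24 TPM in sham. A2m, alpha-2-macroglobulin, which cages proteases of all classes, rose to 75.1 ± 1.00 TPM in SNI, against 10.6 ± 0.117 TPM in sham (SD, n = 3 each), a log2 fold change of 2.71 (limma adjusted p = 6.9e-10). Timp1, an inhibitor of metalloproteinases, had a log2 fold change of 2.11 (limma adjusted p = 1.3e-08), and Wfdc1 one of −1.12 (limma adjusted p = 6.4e-06). Of 7 tested, 3 rose, 2 fell and 2 did not pass.

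Serpina3n, Serpina1 and A2m are known as acute phase genes of the liver, where cytokines of the interleukin-6 family induce them through Stat3. A list of acute phase genes together with ligands, receptors, kinases and other members of the Stat3 pathway held 28 genes with averages. Of these, 8 were at least 2-fold higher and 0 lower in SNI, and 24 had a higher average. Their median log2 ratio was 0.59. This list was chosen with earlier results of these data known, so its counts and median describe it and test nothing. Of 9 tested with limma, 8 rose and 1 fell, where 32% of all genes tested were called higher and 29.2% lower. The gene that fell was Cntf, a ligand, at 56.1 TPM in SNI and 67.5 TPM in sham. Its log2 fold change was −0.26 (limma adjusted p = 0.010). Il11ra1, Cntfr and Hpx also had lower averages in SNI. Socs3, the feedback inhibitor of this pathway, had a log2 fold change of 2.64 (limma adjusted p = 6.1e-08), and C3, the central complement component, one of 2.30 (limma adjusted p = 1.0e-08). Stat3 averaged 198 TPM in SNI and 146 TPM in sham. Il6 averaged 5.77 TPM in SNI and 0.0367 TPM in sham, where 1 read was counted over the 3 libraries against 162 in SNI, a ratio with an exact 95% interval of 28.7 to 6438 for counting error only. The list shares A2m with that of the other inhibitors. Of 19 genes of hormone and vitamin binding with averages, 0 were past 2-fold and the median log2 ratio was −0.08. Of 4 tested, 3 rose and 1 fell. Thra, a thyroid hormone receptor, averaged 137 TPM in SNI and 173 TPM in sham, and Rbp4, the retinol carrier of plasma, 28.7 and 46.8 TPM.

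**Figure D3:**
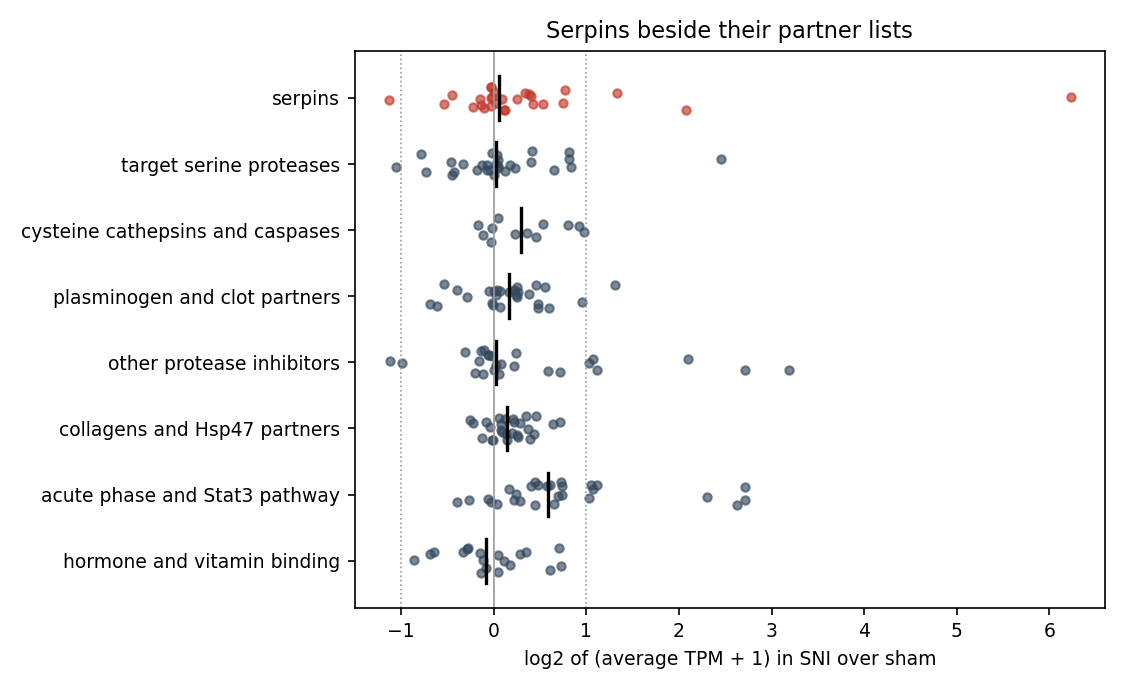
Log2 ratio of group averages, SNI over sham with 1 TPM added, for each serpin (red) and each gene of the 7 partner lists (blue); black bars are medians and dotted lines mark 2-fold. The serpin median is 0.06 with Serpina3n alone beyond 6, and the acute phase and Stat3 list has the highest median, 0.59. The lists were chosen with earlier results of these data known.

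Of the 28 serpins, 20 lie in 3 runs of neighbouring serpin genes in the GRCr8 annotation, on chromosomes 6, 13 and 17. In the run of 18 serpin genes on chromosome 6, which held 8 members, Serpina3n stands at 1 end and Serpina1 in the middle. The members nearest to Serpina3n, Serpina3c and Serpina3m, averaged 0.00667 and 0.0200 TPM in SNI and 0.0200 and 0.0433 TPM in sham, at most 2 reads over 3 libraries. In the run of 10 on chromosome 13, with 7 members, Serpinb2 was the only one past 2-fold. Its neighbours Serpinb10 and Serpinb8 averaged 1.46 and 1.22 TPM in SNI and 0.843 and 0.707 TPM in sham. In the run of 9 on chromosome 17, with 5 members, Serpinb1b and Serpinb1a passed the test in opposite directions, and the members Serpinb9 and Serpinb6b lie between them.

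**Figure D4:**
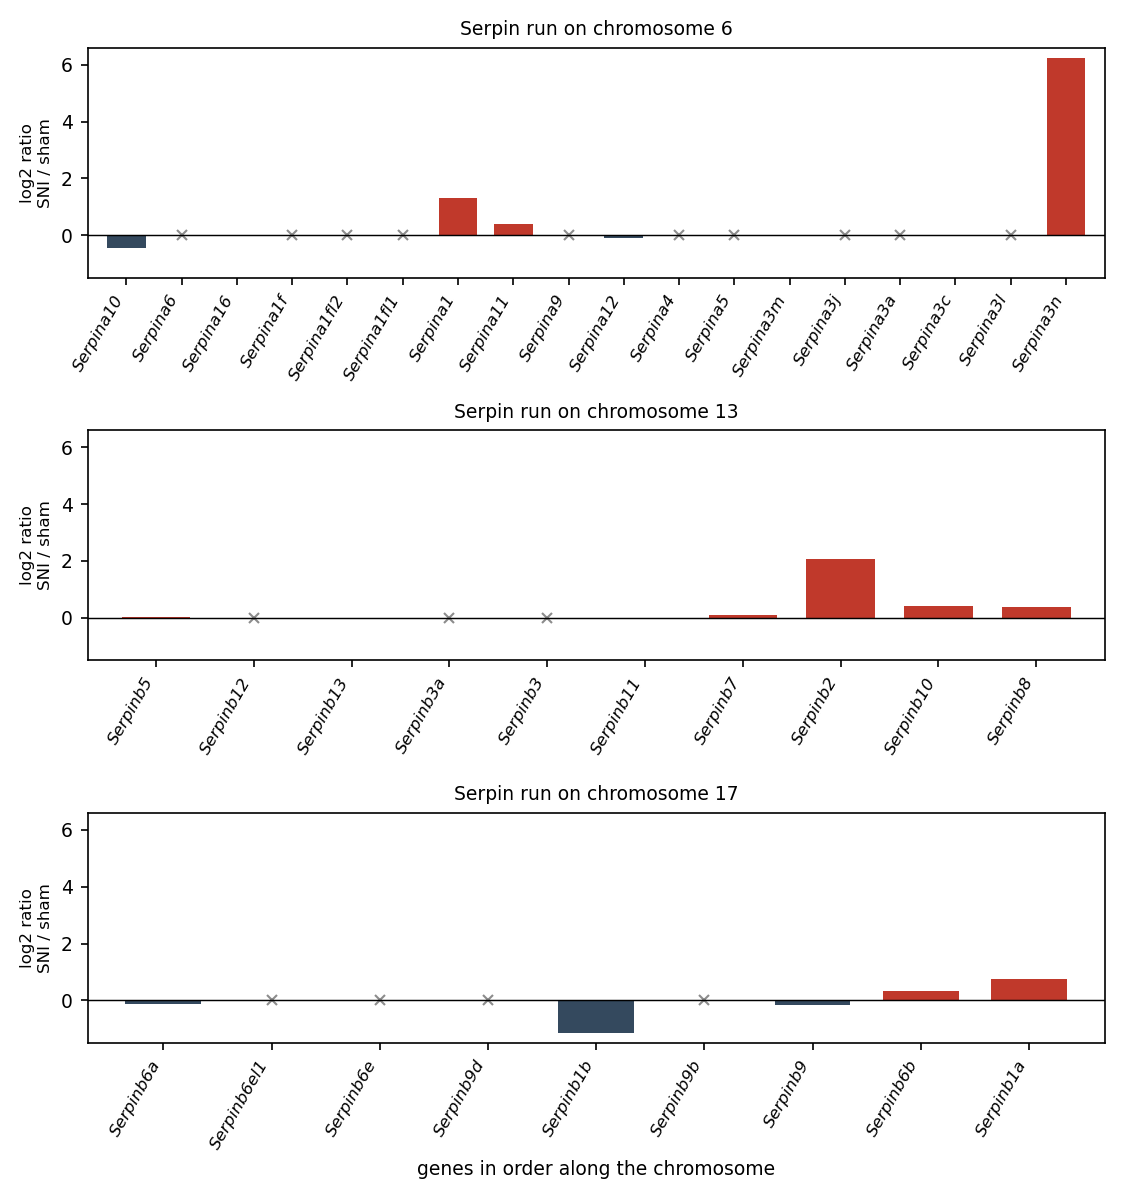
Log2 ratio of group averages, SNI over sham with 1 TPM added, for serpin genes in their order along 3 chromosomes; red bars are higher and blue bars lower in SNI, and crosses mark annotated serpins that are not among the 28. Serpina3n (6.23), Serpinb2 (2.08) and Serpinb1b (−1.13) have the ratios furthest from 0 in their runs. The added 1 TPM holds neighbours far below 1 TPM near 0 whatever their change. On chromosome 17, Serpinb1a (0.75) and Serpinb6b (0.33) lie above 0.

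The remaining 16 members, those under 5 TPM in both averages and in neither list of the authors, ranged up to 2.08 TPM in SNI and 2.81 TPM in sham. Of these, 9 were higher and 7 lower in SNI, with log2 ratios between −0.45 and 0.42. For 10 of them no more than 9 reads were counted over the 3 libraries of either group. They were Serpinb5, Serpinb7, Serpinb11 and Serpinb13, known from skin and other epithelia, Serpinc1 (antithrombin), Serpind1 (heparin cofactor II), Serpina12 (vaspin), Serpina16, Serpina3m and Serpina3c. Differences among those are not detectable at this depth. The other 6 were Serpina10, Serpinb6b, Serpinb8, Serpinb10, Serpinf2 and Serpine3. For Serpina10 the interval of the read ratio, 0.479 to 0.864, lay below 1. For Serpinb8 (1.20 to 2.08), Serpinb10 (1.11 to 2.79) and Serpinb6b (1.01 to 2.06) it lay above 1, for counting error only and with no measure of the spread between libraries. For Serpinf2 (0.986 to 2.39) and Serpine3 (0.970 to 2.57) it included 1.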

How the data were processed

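RNA of rat dorsal root ganglia was sequenced in 3 SNI and 3 sham libraries. Per the labels' protocols 2 library kits are named, TruSeq and NEBNext Ultra. The sources used here name no aligner, counter, build or strand, and no test behind the authors' lists. TPM per library of 1637 genes was deposited, and a second table holds group averages of TPM and of read counts for 18696 genes, per the file headers. The deposited read counts are estimated counts averaged over a group, and they were multiplied by 3 and rounded for exact (Clopper-Pearson) 95% intervals of read ratios. Intervals cover counting error only, as no molecular identifiers are named. As deposited by the authors, the other lists (699 higher and 136 lower genes) hold gene identifiers, with no score of any kind. Columns named control were taken as sham. In 1628 genes of both tables the library means and the averages differed by less than 0.001 TPM.

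Genes averaging 1 TPM or more over the 6 libraries (1596; 41 left out) were compared on log2(TPM + 1) with limma 3.58.1 (R 4.3.3). The fit had an intensity trend and no term but group, and p-values were adjusted by Benjamini-Hochberg over all these genes. The scale understates changes of low genes. The same steps were tested on simulated data. Averages were compared as log2 ratios with 1 TPM added and have no test. With 3 libraries a group, the smallest two-sided p of an exact permutation test is 0.1, so none was run. Named in full were serpins with values per library, in the authors' lists, past 2-fold with an average of at least 1 TPM, or with an average of at least 5 TPM (12). From partner lists came up to 4 members past 2-fold, or else the 2 most abundant. Plat, Plau, Plaur, Vtn, Lrp1, Elane, Ctsg, Col1a1, Ctsk and Stat3 were added as known partners. The members and lists were chosen with earlier results of these data known. A planned likeness measure to Serpina3n is not given because the libraries fall into 2 separate groups, and proteins were not compared because no sequences were at hand. Of 28 members, all matched a RefSeq gene and 24 a promoter. A few further genes are not reported here and were left out of the counts of serpins and of list members. Calculations outside R used Python 3.11.15, pandas 2.3.3, numpy 2.4.6 and scipy 1.17.1, and figures matplotlib 3.10.9.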

Additional observations from a re-analysis of the deposited data

How the results depend on the processing

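With another pseudocount (0.1), no filter, a filter of 5 TPM, quantile normalization, no trend, the replicate block or any 1 library left out, the 6 tested serpins kept their direction. Their calls held too, except that of Serpinb6a without SNI replicate 1 or 3. The number of serpins called higher was 2 throughout, and that called lower 4, or 3 to 4 when a library was left out. With the replicate number as a block, 2 serpins were called higher and 4 lower. Same-numbered libraries correlated at −0.09, −0.06 and 0.19 in their deviations from group means. That gives no sign of pairing by number, but with 3 libraries a group it cannot exclude it. No call of a serpin changed with the block. Serpins past 2-fold numbered 3 higher and 1 lower, also with read counts, a pseudocount of 0.1 or a minimum of 10 reads, and at 1.5-fold they were 5 and 1. Of 165 partner genes with averages, 15 were past 2-fold higher and 2 lower. These counts were 25 and 7 with a pseudocount of 0.1, 27 and 7 with read counts, and 37 and 10 at 1.5-fold. The share over all genes was counted at the main setting only (2.32% higher, 0.407% lower). Counts of serpins and partner genes under the other settings therefore have no background here. Partner genes called higher were 21, and 12 after quantile normalization, where all genes called higher went from 510 to 402. Those called lower were 10 and 15, against 466 and 608 of all genes. The cause was not tested for any of these shifts. The depth of single libraries is unknown, which limits what can be said of the 10 serpins with under 10 reads.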

Other observations

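Serpin genes outside the 28 also appear in the files. Serpina1f, in the same run as Serpina1 on chromosome 6, stands in the authors' deposited higher list and has no averages. In the GRCr8 annotation 3 further genes with averages now carry serpin names. Serpina1fl1, listed in the files as LOC690319, averaged 1.01 TPM in SNI and 0.383 TPM in sham. Serpina3j (LOC299277) averaged 0.0833 TPM in SNI and 0.0333 TPM in sham, and Serpinb6el1 (RGD1564786) 0.223 and 0.307 TPM. Agt, angiotensinogen, has the serpin fold under another name and is the source of the angiotensin peptides. It averaged 4.79 TPM in SNI and 9.55 TPM in sham and is in the authors' deposited lower list, while Ace, the enzyme that makes angiotensin II, rose with a log2 fold change of 0.28 (limma adjusted p = 0.015).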
